A study of Sus scrofa with 6 samples.

Results

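Genes of DNA replication and of entry into S phase were read from gene counts of the pig (Sus scrofa) oviduct ampulla, the wide upper part of the tube where eggs are fertilised. The genes were chosen by name, as a list of 38 well-known replication genes, and 37 of them had a row under their symbol among the 35670 Ensembl genes of the table. RRM2, a subunit of ribonucleotide reductase, had no row with its symbol and was not analysed here. All 37 passed the filter on low counts and were tested. The 6 libraries came from ampulla tissue of female pigs, 3 labelled post-ovulatory and 3 labelled early luteal, the time when corpora lutea form. No treatment, breed or age is given. Whether each replicate is a different animal is not stated, so the p-values speak only of the spread among these 6 libraries, which may be technical. Each library is of whole ampulla tissue, so that a lower level can mean fewer cells in S phase or less RNA per cell, and bulk counts cannot tell these apart.

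A cell prepares to copy its DNA in G1, when the origin recognition complex, CDC6 and CDT1 load the MCM2-7 helicase onto origins. Cyclin E with CDK2 and the E2F transcription factors then open S phase. CDC45 and the GINS complex switch the helicase on, polymerases copy both strands on the PCNA clamp, and CAF-1 packs the new DNA into nucleosomes. Most of these genes are E2F targets and are nearly silent in cells that have left the cycle. In the oviduct the epithelium is made of secretory and ciliated cells, and ciliated cells no longer divide.

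Library totals ran from 7370723 to 30954222 counts, and 3 counts, taken as the floor of a library, corresponded to between 0.0959 and 0.406 CPM (counts over the TMM-scaled total, times 1e6). Epithelial keratins, ciliary genes and smooth muscle genes marked the tissue as labelled: KRT8 averaged 389 CPM, DNAH5 374 CPM and MYH11 2641 CPM over the 6 libraries. Early luteal replicate 2 stood apart from the rest, with Pearson correlations of 0.802 to 0.865 to the other libraries (log2 CPM, across the 17920 genes tested), against at least 0.882 among the other 5. On the second principal component (18.3% of the variance) post-ovulatory replicate 1 had the highest score, 85.1, and early luteal replicate 3 the lowest, -68.2. The rest lay between -20.6 and 17.1. Post-ovulatory replicate 1 had correlations of 0.919 to 0.937 to post-ovulatory replicates 2 and 3 and early luteal replicate 1, and 0.882 to early luteal replicate 3. Early luteal replicate 2 also had more genes at 0. Of 13228 genes above 2 CPM in each of the other libraries, 180 (1.36%) had no count in that library, whereas the same measure gave 0 to 2 genes in any other library.

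The 37 genes stood lower in early luteal than in post-ovulatory tissue, every one by the sign of its fitted log2 fold change, but most of that difference came from 1 library. Post-ovulatory replicate 1 was the highest of the 6 libraries in 37 of 37 genes. Their summed level was 2237 CPM in post-ovulatory replicate 1, 702 and 614 CPM in post-ovulatory replicates 2 and 3, and 565, 526 and 501 CPM in early luteal replicates 1, 2 and 3. Gene by gene the 5 remaining libraries were less even: they lay within 2-fold of each other in 14 of the 37 genes (37.8%, against 29.8% of all genes tested), and the mean centred log2 CPM of the 37 was 0.16 and -0.07 in post-ovulatory replicates 2 and 3 and -0.19, -1.37 and -0.70 in early luteal replicates 1, 2 and 3. Over all genes tested, post-ovulatory replicate 1 was highest in 20.3% and more than 2-fold above the next library in 2.19%, compared with 26 of the 37 replication genes (70.3%). Among these, its ratio to the next highest library ran from 1.13 (GINS3) to 14.2 (POLE), with a median of 3.11.

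**Figure D1:**
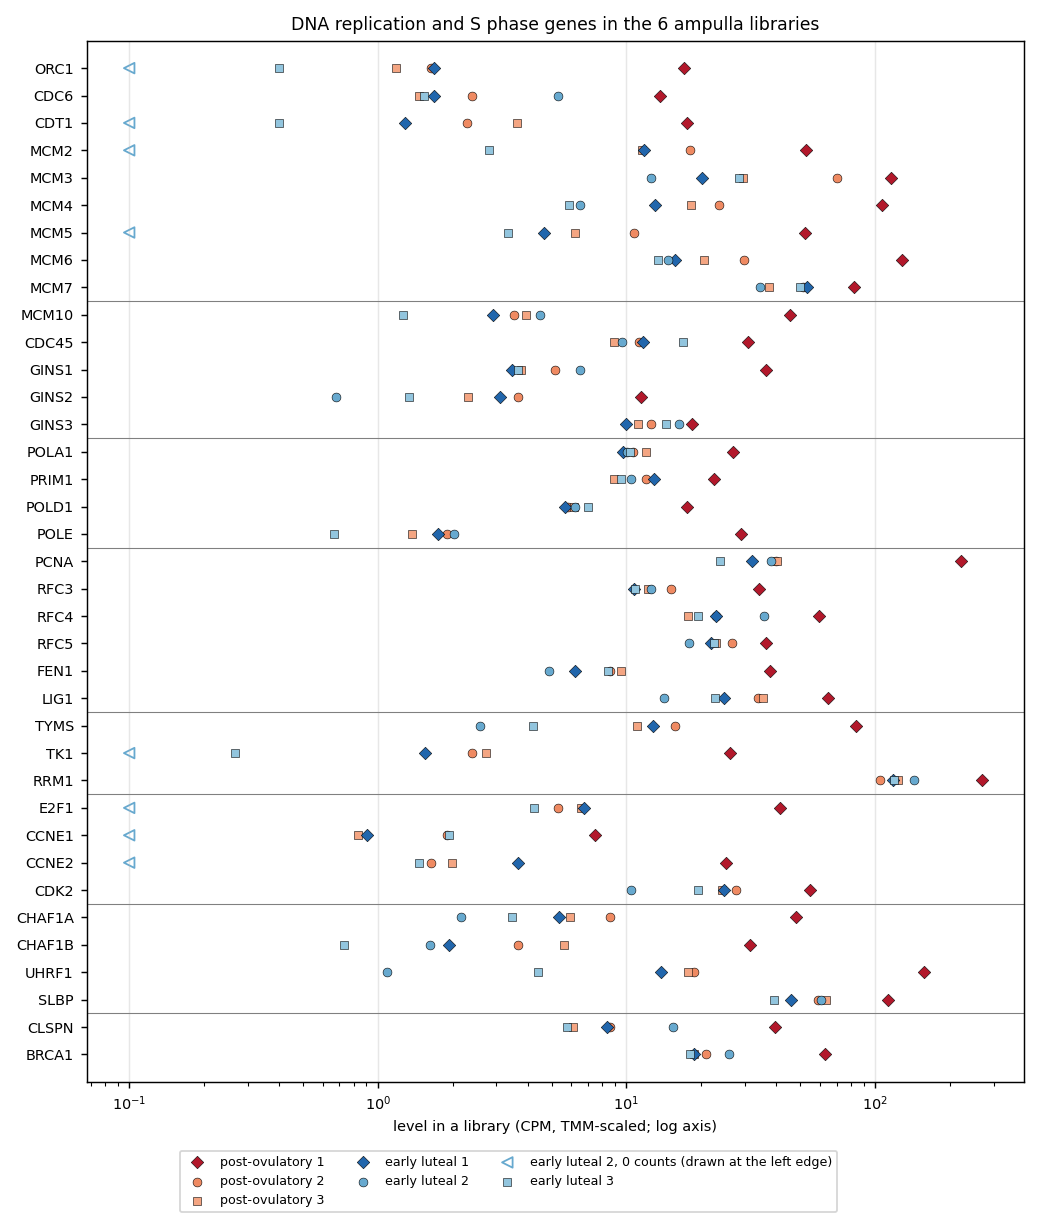
Each row is 1 of the 37 genes and each point 1 library, with the level in CPM on a log axis; horizontal lines separate the groups of genes by role, and open triangles at the left edge are libraries with 0 counts. The dark red diamond of post-ovulatory replicate 1 is the rightmost point in every row, and the other 5 libraries mix to different degrees.

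**Figure D2:**
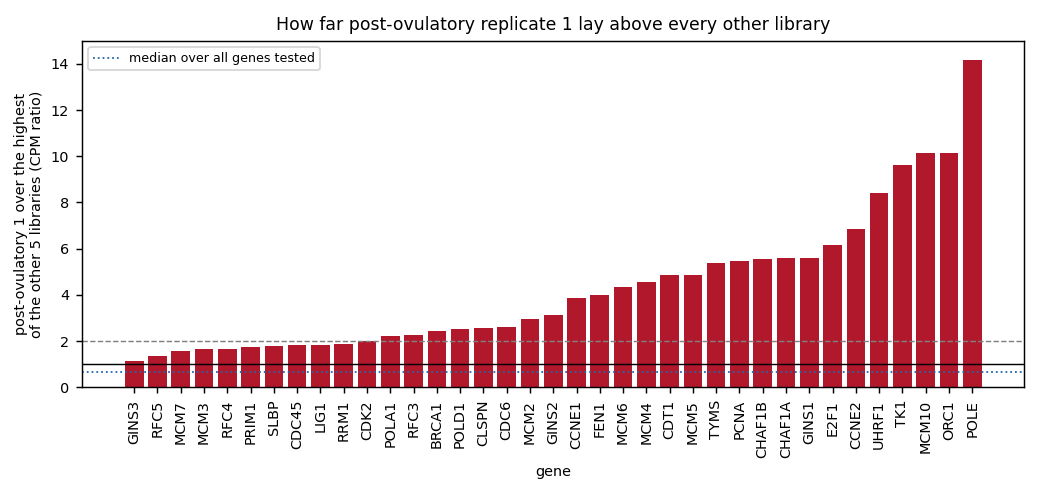
Bars give, for each gene, the CPM of post-ovulatory replicate 1 divided by the highest CPM among the other 5 libraries; the solid line marks 1, the dashed line 2 and the dotted line the median over all genes tested (0.662). All 37 bars stand above 1, from 1.13 for GINS3 to 14.2 for POLE, and 26 stand above 2.

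No gene passed the threshold. The question was whether a gene differed between early luteal and post-ovulatory tissue, and at a Benjamini-Hochberg adjusted p of 0.05 the quasi-likelihood test of edgeR called 0 of the 37 and 0 of all 17920 genes (0%). The adjusted p of the replication genes ran from 0.632 (MCM4 and CHAF1B) to 0.981 (GINS3). At an unadjusted p under 0.05, 16 of the 37 (43.2%) counted, all lower in early luteal tissue, where the same rule gave 7.11% of all genes in either direction and 3.54% lower. Leaving out post-ovulatory replicate 1 brought that count to 3, and leaving out early luteal replicate 2 or 3 brought it to 10 or 8 (8.33% and 5.32% of all genes in those fits). DESeq2 called CHAF1B, MCM4 and CDT1 (adjusted p = 0.0195, 0.0271 and 0.0436), 3 of 37 where it called 0.971% of all genes. It gave no p for ORC1, MCM10, POLE, TK1 and UHRF1. With limma voom 0 of the 37 were called, and 7 had an unadjusted p under 0.05 (7.13% of all genes). The median log2 fold change was -1.74 over the 37 and -0.03 over all genes tested. All 37 were lower, as were 51.8% of all genes.

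The spread within the post-ovulatory stage was as wide as the difference between the stages. The median SD of log2 CPM over the 37 genes was 1.38 among post-ovulatory and 0.62 among early luteal libraries, and the median size of the stage difference was 1.20. For the other 17883 genes tested the same medians were 0.36, 0.60 and 0.44. In 17 of the 37 genes (45.9%) the stages differed by more than the larger of the 2 SDs, as did 26.7% of the other genes.

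In 14 of the 37 genes (37.8%) all early luteal libraries lay below all post-ovulatory ones, and in none did they lie above. The background for early luteal below post-ovulatory was 9.57% of all genes, that for early luteal above it 7.61%, and 17.2% did not overlap in either direction. These 14 were CDT1, MCM3, MCM4, MCM5, MCM6, POLA1, PCNA, RFC5, FEN1, LIG1, TK1, CHAF1A, CHAF1B and UHRF1. Post-ovulatory replicate 1 was the highest library in each. By construction, the early luteal libraries were therefore below post-ovulatory replicates 2 and 3 in the same 14 genes, which adds no separate support. Below both were 13.4% of all genes, and above both were 0 of the 37 and 11% of all genes. The 14 became 12 with DESeq2 size factors, 13 with upper quartile scaling, 15 with library totals alone and 17 with no filter. In those settings 17.2%, 16.9%, 16.3% and 12.8% of all genes did not overlap in either direction. The size of the difference rests on post-ovulatory replicate 1. Refitted without post-ovulatory replicate 1, the median log2 fold change of the 37 was -0.41, 26 of 37 were lower, and 3 (MCM4, MCM3 and CHAF1B) had an unadjusted p under 0.05, with 3.22% of all genes (edgeR, lowest Benjamini-Hochberg adjusted p of the 37 = 0.985).

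**Figure D3:**
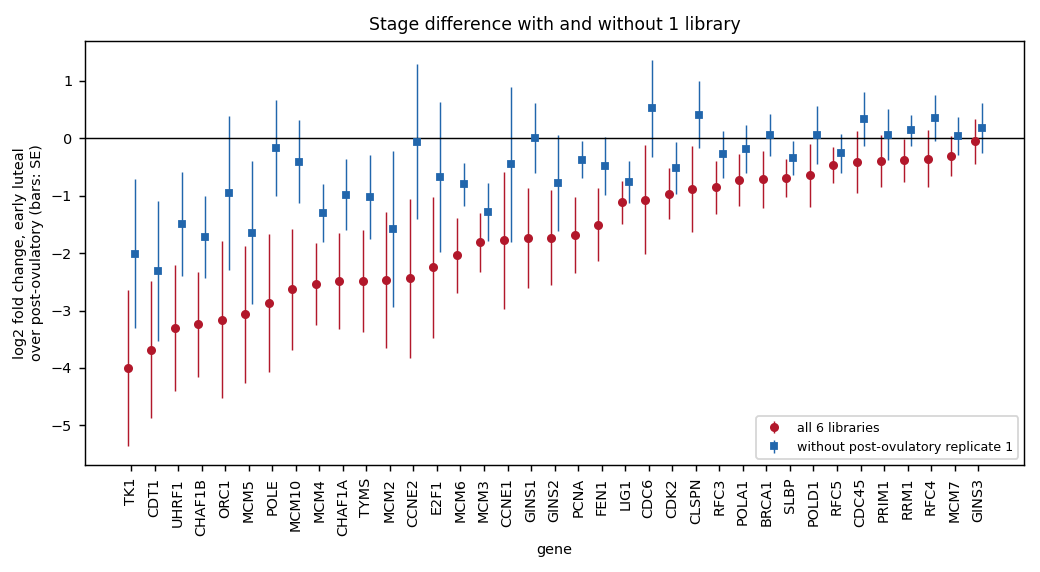
Points give the log2 fold change, early luteal over post-ovulatory, of each gene from edgeR with all 6 libraries (red circles) and without post-ovulatory replicate 1 (blue squares); bars are SE. The median moves from -1.74 to -0.41, and 11 of the 37 genes cross to the other side of 0.

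The 9 genes of origin licensing, the loading of the helicase, and of the helicase itself had a median log2 fold change of -2.47. The median over the 37 was -1.74, and without post-ovulatory replicate 1 these medians were -1.29 and -0.41. MCM4, a subunit of the MCM2-7 ring (ENSSSCG00000006273, chromosome 4, 79674737 to 79686964 in Sscrofa11.1), stood at 107, 23.5 and 18.1 CPM in post-ovulatory replicates 1, 2 and 3 and at 13.1, 6.50 and 5.85 CPM in early luteal replicates 1, 2 and 3. MCM3 stood at 116, 70.2 and 29.3 CPM against 20.03, 12.6 and 28.4 CPM. MCM6 stood at 129, 29.8 and 20.6 CPM against 15.7, 14.6 and 13.4 CPM. In these 3 the stages did not overlap, although for MCM3 the nearest libraries (29.3 and 28.4 CPM) almost met. Their log2 fold changes were -2.54 ± 0.72 (SE), -1.81 ± 0.52 and -2.04 ± 0.65 (edgeR, adjusted p = 0.632, 0.644 and 0.664), and without post-ovulatory replicate 1 they were -1.30 ± 0.51, -1.29 ± 0.51 and -0.80 ± 0.37.

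MCM7, another subunit of the same ring, differed least of the 6. It stood at 82.3, 51.3 and 37.6 CPM in post-ovulatory and 53.2, 34.3 and 50.1 CPM in early luteal replicates, so the stages overlapped (log2 fold change -0.31 ± 0.35, SE). Post-ovulatory replicate 1 exceeded the next library 1.55-fold for MCM7, and between 1.65-fold (MCM3) and 4.85-fold (MCM5) for the other 5 subunits. The difference between MCM7 and its partners was not tested. The RefSeq span of MCM7 overlaps that of AP4M1, and the strand setting of the counting is not given, so reads of the neighbour could be included. The same holds for other genes, among them MCM4, RFC5 and UHRF1, whose levels did not overlap between the stages.

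The remaining licensing genes included 4 with no count in early luteal replicate 2. MCM2 stood at 52.7, 17.9 and 11.5 CPM in post-ovulatory and 11.7, 0 and 2.79 CPM in early luteal replicates, and MCM5 at 52.0, 10.7 and 6.23 CPM against 4.64, 0 and 3.32 CPM. Neither had a count in early luteal replicate 2, whose floor of 3 counts is 0.406 CPM, although MCM2 had 42 to 708 and MCM5 50 to 699 counts in the other 5 libraries. The origin recognition subunit ORC1 and the loading factor CDT1 were also at 0 there and at most 1.67 and 1.29 CPM in early luteal tissue, against 1.18 to 17.0 and 2.27 to 17.5 CPM in post-ovulatory tissue. CDC6, which loads the helicase together with CDT1, went differently, with early luteal replicate 2 at 5.28 CPM, the second highest after post-ovulatory replicate 1 (13.7 CPM). In all, 8 of the 37 genes (ORC1, CDT1, MCM2, MCM5, TK1, E2F1, CCNE1 and CCNE2) had no count in early luteal replicate 2, and none was at 0 in any other library. Of all genes tested, 1312 of 17920 were at 0 in at least 1 library. Early luteal replicate 2 also had the larger share of genes at 0 given above, whose part in these zeros was not tested. That share is of genes above 2 CPM in each other library, which among the 8 holds only for MCM2, MCM5 and E2F1.

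Genes that switch the helicase on overlapped between the stages in 5 of 5 cases, where 17.2% of all genes did not overlap. MCM10, which helps to activate the assembled helicase, showed the largest excess of these in a single library, at 45.3 CPM in post-ovulatory replicate 1 against 3.54 and 3.93 CPM in post-ovulatory replicates 2 and 3 and 2.90, 4.47 and 1.26 CPM in early luteal tissue. GINS1 was similar, at 36.4 CPM in that library and 3.48 to 6.50 CPM in the other 5. Among these 5 libraries, levels of both genes did not separate by stage. GINS2 stood at 11.4, 3.66 and 2.30 CPM against 3.09, 0.677 and 1.33 CPM. CDC45 and GINS3 varied least: CDC45 stood at 30.8, 11.2 and 8.89 CPM against 11.7, 9.62 and 17.0 CPM, and GINS3 at 18.3, 12.5 and 11.2 CPM against 9.98, 16.3 and 14.4 CPM. The log2 fold change of GINS3 was -0.05 ± 0.39 (SE), and that of CDC45 was -0.41 ± 0.54.

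Polymerase and primase genes differed in how far post-ovulatory replicate 1 stood above the next library. The ratio was 14.2 for POLE, 2.51 for POLD1, 2.23 for POLA1 and 1.74 for PRIM1. POLE, the catalytic subunit of the leading strand polymerase, stood at 28.8 CPM in that library, 1.89 and 1.37 CPM in the other post-ovulatory libraries and 1.74, 2.03 and 0.665 CPM in early luteal tissue. POLA1, the catalytic subunit of polymerase alpha, stood at 26.8, 10.6 and 12.02 CPM against 9.73, 10.03 and 10.3 CPM. Its 3 early luteal values lay within an SD of 0.290 CPM, and all were below the post-ovulatory ones, the nearest of which were 10.3 and 10.6 CPM. The primase subunit PRIM1 (8.92 to 22.6 CPM in post-ovulatory, 9.51 to 12.9 CPM in early luteal tissue) and POLD1, the catalytic subunit of polymerase delta (5.81 to 17.5 and 5.67 to 6.98 CPM), overlapped. The log2 fold change of POLE was -2.87 ± 1.20 (SE) with 6 libraries and -0.16 ± 0.84 without post-ovulatory replicate 1, and those of POLA1 were -0.72 ± 0.45 and -0.19 ± 0.42.

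The sliding clamp and the enzymes that process and join Okazaki fragments did not overlap between the stages. PCNA, the clamp itself (ENSSSCG00000056538, chromosome 17, 14137746 to 14142584), stood at 221, 39.9 and 40.4 CPM in post-ovulatory and 32.0, 38.2 and 23.7 CPM in early luteal replicates. Post-ovulatory replicate 1 was 5.47-fold above the next library, while the closest libraries of the stages differed by less than 2 CPM. LIG1, the ligase that seals the fragments, showed the steadier difference: 64.5, 33.8 and 35.3 CPM against 24.7, 14.1 and 22.7 CPM (log2 fold change -1.12 ± 0.37, SE; edgeR adjusted p = 0.664), and -0.76 ± 0.37 without post-ovulatory replicate 1. FEN1, the flap nuclease, stood at 37.6, 8.59 and 9.46 CPM against 6.18, 4.88 and 8.44 CPM. The clamp loader subunits RFC3, RFC4 and RFC5 had log2 fold changes of -0.85, -0.35 and -0.47. For RFC4, early luteal replicate 2 (35.8 CPM) exceeded post-ovulatory replicates 2 and 3 (22.9 and 17.7 CPM), and the RefSeq spans of RFC4 and EIF4A2 overlap.

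Of the genes that supply nucleotides, TYMS and TK1 differed more between libraries than RRM1. TK1, the thymidine kinase of S phase, stood at 26.1, 2.40 and 2.72 CPM in post-ovulatory and 1.55, 0 and 0.266 CPM in early luteal replicates, the latter from 24, 0 and 4 counts. TYMS, which makes thymidylate, stood at 84.1, 15.7 and 11.0 CPM against 12.8, 2.57 and 4.19 CPM, and early luteal replicate 1 lay among the post-ovulatory values. RRM1, the large subunit of ribonucleotide reductase, stood at 268, 105 and 124 CPM against 118, 143 and 119 CPM. Outside post-ovulatory replicate 1, RRM1 was higher in early luteal replicate 2 than in any other library. The log2 fold changes were -4.00 ± 1.36 (SE) for TK1, -2.48 ± 0.89 for TYMS and -0.39 ± 0.38 for RRM1.

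Genes that open S phase overlapped between the stages in 4 of 4 cases, where 17.2% of all genes did not overlap. An unadjusted p under 0.05 (edgeR) was found for 0 of them and for 7.11% of all genes. E2F1, the activating transcription factor, stood at 41.6, 5.30 and 6.59 CPM in post-ovulatory and 6.76, 0 and 4.26 CPM in early luteal replicates. Apart from the high value of post-ovulatory replicate 1 and the 0 of early luteal replicate 2, its 4 other values lay between 4.26 and 6.76 CPM. CDK2, the kinase that works with cyclin E, stood at 54.7, 27.5 and 24.3 CPM against 24.7, 10.4 and 19.3 CPM. The cyclins E were lower in counts: CCNE2 stood at 25.2, 1.64 and 1.98 CPM against 3.67, 0 and 1.46 CPM, and CCNE1 at no more than 7.45 CPM in any library. The RefSeq span of CCNE2 overlaps that of INTS8.

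The 4 genes of chromatin assembly and histone mRNA had a median log2 fold change of -2.87, and of -1.24 without post-ovulatory replicate 1. CHAF1B, the middle subunit of CAF-1 (ENSSSCG00000012056, chromosome 13, 200048096 to 200074902), stood at 31.3, 3.66 and 5.63 CPM in post-ovulatory and 1.93, 1.63 and 0.731 CPM in early luteal replicates. CHAF1A, its large subunit, stood at 48.0, 8.59 and 5.91 CPM against 5.35, 2.17 and 3.46 CPM. UHRF1, which recruits the maintenance DNA methyltransferase to new DNA, stood at 157, 18.7 and 17.6 CPM against 13.7, 1.08 and 4.39 CPM. In all 3 the stages did not overlap, although for CHAF1A the nearest libraries (5.91 and 5.35 CPM) almost met. The spread among early luteal libraries was widest for UHRF1, whose highest and lowest differed 12.7-fold. Their log2 fold changes were -3.24 ± 0.92 (SE), -2.49 ± 0.84 and -3.30 ± 1.09 (edgeR, adjusted p = 0.632, 0.664 and 0.664), and -1.72 ± 0.71, -0.98 ± 0.62 and -1.49 ± 0.90 without post-ovulatory replicate 1. SLBP, which binds the stem-loop of histone mRNA, stood at 113, 59.1 and 63.2 CPM against 45.8, 60.4 and 39.4 CPM and overlapped.

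The checkpoint adaptor CLSPN and the repair gene BRCA1 did not separate by stage. CLSPN stood at 39.5, 8.59 and 6.07 CPM in post-ovulatory and 8.37, 15.4 and 5.78 CPM in early luteal replicates, and BRCA1 at 62.8, 20.8 and 18.7 CPM against 18.7, 25.9 and 18.1 CPM. In both, early luteal replicate 2 was the second highest library. With post-ovulatory replicate 1 left out their log2 fold changes were 0.41 ± 0.58 (SE) and 0.06 ± 0.37, on the other side of 0 from the values with all 6 libraries (-0.88 ± 0.74 and -0.71 ± 0.50).

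A list of 65 further replication genes, none of them among the 38, was set beside them. Of the 62 with a row, all tested, 48 had the lower level in early luteal tissue, with a median log2 fold change of -0.51, and 0 passed in edgeR; 11 had an unadjusted p under 0.05, all lower (3.54% of all genes). Without post-ovulatory replicate 1 36 of 62 were lower (58.1%, against 52% of all genes), the median was -0.08 and 1 gene had an unadjusted p under 0.05. Post-ovulatory replicate 1 was highest in 43 of the 62 and over 2-fold above the next library in 21. CDCA7, a chromatin remodelling partner, stood at 39.5, 9.09 and 3.48 CPM against 1.93, 1.49 and 0.931 CPM. PCLAF, which binds PCNA, stood at 134, 4.17 and 6.11 CPM against 3.74, 1.35 and 0.266 CPM, and DTL, which targets CDT1 for destruction, at 17.6, 2.02 and 1.21 CPM against 0.966, 0 and 0.399 CPM. In these 3 the stages did not overlap. The histone chaperones SSRP1 (331 ± 119 CPM in post-ovulatory and 237 ± 44.4 CPM in early luteal tissue, SD, n = 3) and NASP (210 ± 67.4 and 146 ± 56.7 CPM) overlapped. In 9 of the 62 all early luteal libraries lay below the post-ovulatory ones (9.57% of all genes) and in 3 above (7.61% of all genes). The 3 are named here after their values were seen: ORC4, an origin recognition subunit, at 91.8 ± 29.8 against 56.4 ± 13.1 CPM, MCM9 at 4.90 ± 2.86 against 2.11 ± 0.624 CPM, and RRM2B, the ribonucleotide reductase subunit used outside S phase, at 25.5 ± 2.34 against 19.8 ± 2.76 CPM.

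Mitosis genes, which act after S phase, had their highest level in the same library in 29 of 29 cases, and 25 were over 2-fold above the next one. TOP2A stood at 182, 18.8 and 16.6 CPM in post-ovulatory and 17.4, 4.74 and 3.39 CPM in early luteal replicates.

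**Figure D4:**
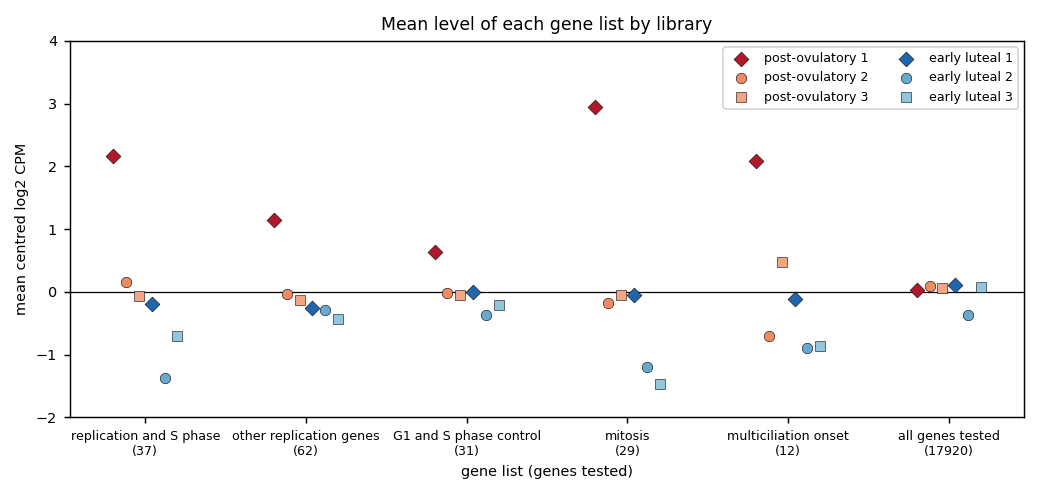
Each point is the mean over a gene list of log2 CPM centred per gene over the 6 libraries, for 1 library; the number of tested genes stands under each list. Post-ovulatory replicate 1 lies at 2.17 for the replication and S phase genes and 2.94 for mitosis, above the other 5 libraries, while the mean over all genes tested stays between -0.37 and 0.10.

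Marker levels of other cell types were set beside the replication genes, library by library. Of the 10 B and plasma cell markers, all with a row, the summed level was 555 CPM in post-ovulatory replicate 1, 88.3 and 14.6 CPM in the other post-ovulatory libraries, and 268, 20.05 and 11.7 CPM in early luteal tissue; JCHAIN made up 539 CPM of the first value, and the B cell markers MS4A1 and PAX5 were at 0.298 and 0.223 CPM there. T and NK cell markers (15 of 18 with a row) summed to 74.4 CPM in post-ovulatory replicate 1, less than in post-ovulatory replicate 2 (96.7 CPM) and early luteal replicate 1 (110 CPM), with a range of 40.6 to 96.7 CPM in post-ovulatory and 21.5 to 110 CPM in early luteal tissue. Macrophage and dendritic cell markers (11 of 12) summed to 106 to 219 CPM in post-ovulatory and 80.3 to 208 CPM in early luteal tissue, highest in post-ovulatory replicate 1. Endothelial markers (11 of 13) were lowest there, at 383 CPM, against 417 to 626 CPM in the other 5. Ciliated cell markers (11 of 12) were highest there, at 3110 CPM against 1515 to 2646 CPM, and stromal markers (12 of 13) summed to 1765 to 3307 CPM in post-ovulatory and 1463 to 1713 CPM in early luteal tissue. Smooth muscle markers (9 of 9) summed to 4387, 7289.6 and 3858 CPM in post-ovulatory and 1655, 9549 and 12492 CPM in early luteal replicates 1, 2 and 3. Within the early luteal stage they were lowest in replicate 1, where the mean of the replication genes was highest. They were highest in early luteal replicate 3, although that mean was lowest in early luteal replicate 2. Within the post-ovulatory stage they were lowest in replicate 3, where that mean was also lowest. Secretory cell markers (7 of 10) summed to 1437 to 12427 CPM in post-ovulatory and 2163 to 3956 CPM in early luteal tissue. Erythroid markers (6 of 8) summed to 1.09 to 121 CPM in post-ovulatory and 50.4 to 153 CPM in early luteal tissue. Immediate early genes (15 of 16) summed to 415 to 1072 CPM in post-ovulatory and 548 to 2145 CPM in early luteal tissue, highest in early luteal replicate 3. The part of these cells and genes in the levels of the replication genes was not tested.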

How the data were processed

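Messenger RNA of 6 pig ampulla libraries was read on a NextSeq2000 from a stranded kit, per the labels' protocols. The authors deposited whole-number counts per Ensembl gene, 1 column per sample, with no normalization. The build Sscrofa11.1 and the tools STAR, Trim Galore and FastQC 0.11.4 are named, per the submitters' processing notes. How reads were counted, whether by strand and on which annotation, is not given in the sources used here. Overlapping genes are therefore uncertain, and 12 of the 36 genes with a placed RefSeq span overlap another gene. They are ORC1, MCM4, MCM7, GINS2, POLE, RFC3, RFC4, RFC5, CCNE2, UHRF1, CLSPN and BRCA1. A missing tab in the header meant that columns were taken by position, in the order of its words. Symbols came from a table of Ensembl identifiers, which named 15623 of them; positions are RefSeq's, matched by symbol, on Sscrofa11.1.

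From these counts, edgeR 4.0.16 (R 4.3.3; TMM, filterByExpr, robust quasi-likelihood, no block) tested 17920 genes two-sided, with Benjamini-Hochberg adjustment over all of them and a threshold of 0.05. The SE is the size of the log2 fold change divided by the root of its F statistic. Floors cover counting error only. List means used log2 CPM with a prior count of 2. The code was tested on simulated data. The genes, lists and their roles were chosen with earlier results of these data known. In each role group, values in all libraries are given for up to 3 genes with the lowest p and 2 with the highest mean CPM. For the other lists not every gene that this rule picks was named, and some were named outside it. DESeq2 1.42.0, limma 3.58.1, other scalings and filters, a replicate block and leaving out libraries were alternatives.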

Additional observations from a re-analysis of the deposited data

How the results depend on the processing

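No alternative scaling, filter or library left out gave an edgeR call among the 37 genes. Calls over all genes, 0 with edgeR as described, were 8 with no filter on low counts, 174 with DESeq2 (3 of them replication genes) and 9 with limma voom with sample quality weights. The 16 replication genes at an unadjusted p under 0.05 became 7 with limma voom (7.13% of all genes) and 7 with quality weights (18.9%, near the 14.2% of all genes), and between 3 (without post-ovulatory replicate 1, 3.22%) and 19 (without post-ovulatory replicate 3, 4.98%) with 1 library left out, the fits that left out early luteal replicates 2 and 3 giving 10 and 8 (8.33% and 5.32% of all genes). Their median log2 fold change, -1.74, ranged from -2.13 to -0.41 with 1 library left out, the last without post-ovulatory replicate 1. An alternative chosen after seeing the data left out post-ovulatory replicate 1 and early luteal replicate 2 together: 4 genes had an unadjusted p under 0.05 (6.51% of all genes), 28 of 37 were lower and the median was -0.35. With the replicate number as a block the median was -1.18, 16 genes had an unadjusted p under 0.05 (5.82% of all genes) and 0 were called. Whether the numbers pair the samples is not known. The correlations of same-numbered deviations were 0.05, -0.08 and 0.13, and those of the other pairs ran from -0.16 to 0.06. With 3 libraries per stage, these values can neither show nor exclude pairing.

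Of 592 fold changes of the 37 genes under the alternatives, 27 changed sign, in 13 genes, and the cause was not tested. With 1 library left out, the lowest and highest log2 fold changes were -1.87 and 0.52 for CDC6, -0.54 and 0.039 for MCM7, -0.72 and 0.34 for CDC45, -2.20 and 0.0047 for GINS1, -0.20 and 0.18 for GINS3, -0.66 and 0.060 for PRIM1, -0.91 and 0.058 for POLD1, -0.65 and 0.35 for RFC4, -0.63 and 0.14 for RRM1, -1.35 and 0.41 for CLSPN, and -1.004 and 0.063 for BRCA1. Each highest value was that without post-ovulatory replicate 1, and GINS3 was also above 0 without early luteal replicate 1 (0.15). With both libraries left out, MCM7 (0.21), CDC45 (0.50), GINS3 (0.035), PRIM1 (0.10), POLD1 (0.069), RFC4 (0.066), RRM1 (0.047), CCNE1 (0.096) and CCNE2 (0.49) were above 0. With limma voom and quality weights, MCM7 (0.16), CDC45 (0.50), GINS3 (0.11), PRIM1 (0.029) and CCNE1 (0.12) were, and with upper quartile scaling GINS3 was (0.0073). Depth limits the genes of lowest level: in early luteal replicate 2 a level under 0.406 CPM could not be told from 0.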

Other observations

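Regulators around the replication genes varied in both directions. Of 33 genes of G1 and S phase control, 31 were tested, 21 had the lower level in early luteal tissue and 0 were called by edgeR (4 at an unadjusted p under 0.05, with 7.11% of all genes). E2F7, a repressor of E2F targets, stood at 146, 6.06 and 13.5 CPM in post-ovulatory and 2.58, 2.17 and 0.731 CPM in early luteal replicates, and E2F8, its close relative, at 17.6, 1.26 and 1.60 CPM against 1.03, 0 and 0.133 CPM. In 9 of the 31 all early luteal libraries lay below the post-ovulatory ones (9.57% of all genes) and in 6 above (7.61%). Those above included 2 inhibitors of cyclin-dependent kinases. CDKN1B stood at 38.0, 41.8 and 38.3 CPM against 48.2, 137 and 82.2 CPM (log2 fold change 1.18 ± 0.38, SE; edgeR adjusted p = 0.664), and CDKN1C at 3.05, 2.15 and 1.63 CPM against 6.31, 6.64 and 4.06 CPM (1.32 ± 0.55; adjusted p = 0.685). Other inhibitors did not share this order over all libraries. CDKN2C was highest in post-ovulatory replicate 1 (36.7 CPM, against 9.50 to 18.2 CPM in the other 5 libraries). Its early luteal levels all lay above post-ovulatory replicates 2 and 3 (log2 fold change 0.57 ± 0.42, SE, without post-ovulatory replicate 1). CDKN1A and CDKN2D overlapped between the stages. Apart from CDKN1B, these inhibitors were named after their values were seen. The cell cycle kinase CDK6 also stood higher without overlap (79.9 ± 12.2 CPM in post-ovulatory and 106 ± 17.4 CPM in early luteal tissue, SD, n = 3), and cyclin D1, CCND1, overlapped (68.6 to 157 CPM and 77.5 to 142 CPM).

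Genes that start multiciliation, when an epithelial cell leaves the cycle and builds many centrioles, were uneven in the same library as the replication genes. Of 12 tested, 9 were highest in post-ovulatory replicate 1 (20.3% of all genes), and 4 were over 2-fold above the next library (2.19% of all genes), with a median ratio of 1.52. CCDC78, TP73 and RFX3 were not highest there. MCIDAS, which works with E2F factors to begin the programme, stood at 59.2, 0.379 and 4.51 CPM in post-ovulatory and 1.03, 0 and 0 CPM in early luteal replicates, and PLK4, the kinase of centriole duplication, at 178, 4.80 and 12.1 CPM against 5.80, 6.64 and 1.80 CPM. GMNC, which acts upstream of MCIDAS, was less uneven, at 72.5, 39.4 and 55.3 CPM against 22.02, 24.5 and 13.0 CPM, and did not overlap. FOXJ1, the transcription factor of ciliated cells, stood at 654, 200 and 429 CPM against 413, 79.3 and 409 CPM, and the deuterosome gene DEUP1 at 333, 67.2 and 117 CPM against 96.6, 219 and 98.1 CPM; both overlapped. The relation between this list and the replication genes was not tested.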
